A study of Mus musculus with 44 samples.

Results

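6 genes of B cells and of the plasma cells that arise from them were followed in mouse left ventricle: Ighm and Jchain, whose products are parts of antibody molecules, Cd79a, Cd79b and Ms4a1, whose products sit on the B cell surface, and Blnk, an adaptor inside the cell. Their probe sets were taken by symbol, as every probe set for which the platform annotation names that gene and no other. This gave 17 of the 22690 probe sets on the array, 11 for Ighm, 2 for Ms4a1 and 1 for each of the other genes, and 6 of the 12394 genes tested. Each gene is described by its probe set with the largest SD over the 44 arrays, and the remaining probe sets of Ighm and Ms4a1 stand beside it.

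The 44 mice were 6 months old, and each gave 1 Affymetrix 430A 2.0 array of left ventricular RNA. PKCe mice carry a rabbit PKCε transgene made constitutively active by the substitution A159E; the mouse Myh6 promoter drives it in cardiomyocytes, and the line is on the FVB/N background. FG-3149 is an antibody that binds CTGF, connective tissue growth factor, and the control treatment was nonimmune mouse IgG; both were injected into the abdomen at 30 mg/kg, 2 times per week for 3 months. There were 12 PKCe mice given FG-3149 (6 female, 6 male), 10 PKCe mice given IgG (5 female, 5 male), 12 nontransgenic FVB/N mice given FG-3149 (6 female, 6 male) and 10 nontransgenic FVB/N mice given IgG (7 female, 3 male). Every group therefore received an injected antibody, and no uninjected mice were part of the design. Mouse numbers of the FVB/N groups do not interleave in the labels, so a difference in cohort between them cannot be told apart from the treatment.

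A B cell carries membrane IgM, whose heavy chain is encoded by Ighm, in a complex with CD79A and CD79B, the signalling chains of the B cell receptor. When the receptor is engaged, the kinase SYK acts on these chains and on the adaptor BLNK, which gathers PLCG2 and BTK. MS4A1 is the surface protein CD20, present on B cells and lost as they become antibody-secreting plasma cells, whereas the joining chain encoded by Jchain links the units of secreted IgM and IgA and is abundant in plasma cells. The heart holds B cells in its vessels and between muscle fibres, and more of them lie in the fat and lymphoid tissue around it.

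Values are log2 of the deposited ratio, the level of a probe set on 1 array over its median across the 44 arrays, so 0 is the middle array and 1 is 2 times that level. The ratio keeps no level, so neither detection nor the order of expression of the 6 genes is known. In whole tissue, fewer cells of a type and less RNA per cell cannot be told apart. Several arrays stood apart from their labels or their group. FVB/N FG-3149 replicate 11 is labelled female, but the Y-linked gene Uty was at 3.63 there. PKCe IgG replicate 9 was high for the lung genes Sftpc (9.32) and Scgb1a1 (10.1), and replicate 10 of that group lay at 3.53 and 3.71. An atrial marker level, the mean of Sln, Myl7 and Myl4, passed 4 on 10 arrays: 2 of PKCe FG-3149, 2 of PKCe IgG, 1 of FVB/N FG-3149 and 5 of FVB/N IgG.

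The main pattern was carried by single arrays. Jchain was above 1 on 0 of 24 arrays of mice given FG-3149, against 9 of 20 arrays of mice given IgG. The highest arrays for Jchain, Ighm and Ms4a1 were FVB/N IgG replicates 1 and 2, and replicate 3 of the same group was high for all of these too. Blnk, by contrast, reached 1 on none of the 44 arrays and differed by sex.

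**Figure D1:**
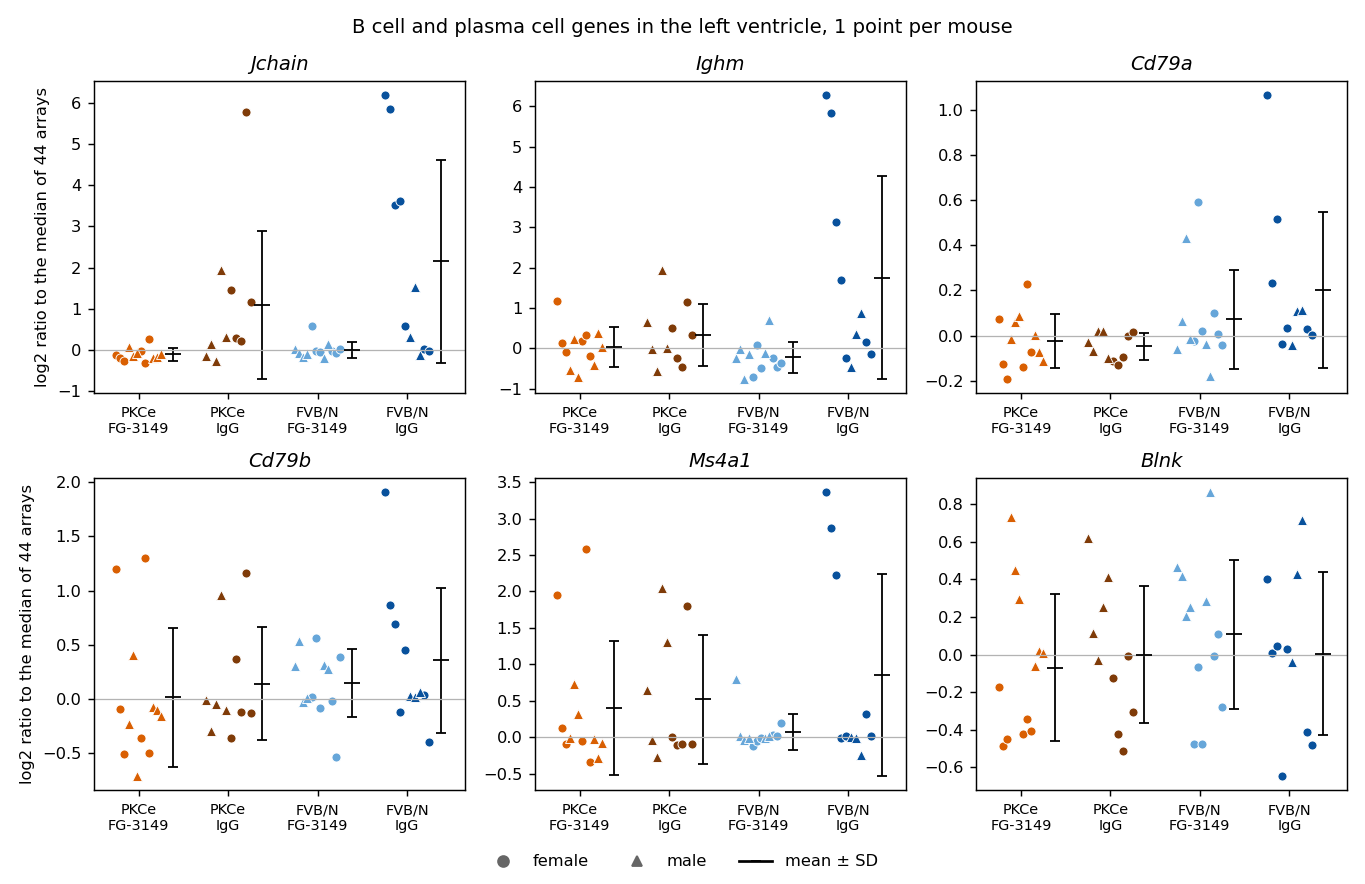
Log2 ratio to the median of 44 arrays (vertical axes, each with its own scale) of the 6 genes in the 4 groups, with 1 point per mouse (circles female, triangles male) and the mean ± SD to the right of each group. Jchain lay between -0.32 and 0.58 on all 24 FG-3149 arrays and reached 5.77 in PKCe IgG and 6.19 in FVB/N IgG mice, while Blnk stayed within -0.65 and 0.86 in every group.

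Jchain (probe set 1424305_at), the joining chain of secreted IgM and IgA, lies on chromosome 5 (88519809 to 88527897, GRCm38.p6) and had the widest spread of the 6 genes (SD 1.68 over 44 arrays). Its lowest, median and highest log2 ratios were -0.32, -0.13 and 0.27 in PKCe FG-3149 mice, against -0.28, 0.30 and 5.77 in PKCe IgG mice. In FVB/N FG-3149 mice they were -0.19, -0.044 and 0.58, against -0.12, 1.06 and 6.19 in FVB/N IgG mice. The FG-3149 groups were narrow and the IgG groups wide, with low arrays of the IgG groups inside the range of the FG-3149 groups. In FVB/N IgG mice the values were 6.19, 5.87, 3.53 and 3.63 in replicates 1 to 4, then 0.58, 0.32 and 1.54 in replicates 5 to 7, and -0.12, 0.014 and -0.013 in replicates 8 to 10. In PKCe IgG mice replicates 4, 6, 9 and 10 stood at 1.94, 1.47, 5.77 and 1.17, and the other 6 lay at 0.31 or below.

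Ighm (1427351_s_at), the heavy chain of IgM, lies on chromosome 12 (113418826 to 113422730) and had an SD of 1.46. Its lowest, median and highest values were -0.72, 0.085 and 1.17 in PKCe FG-3149 mice, against -0.57, 0.17 and 1.93 in PKCe IgG mice. They were -0.76, -0.23 and 0.72 in FVB/N FG-3149 mice, against -0.47, 0.62 and 6.28 in FVB/N IgG mice. FVB/N IgG replicates 1 to 4 held 6.28, 5.85, 3.14 and 1.71, and no other array of the series reached 2. Of the PKCe arrays, IgG replicates 4 (1.93) and 9 (1.15) and FG-3149 replicate 1 (1.17) passed 1.

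The 11 Ighm probe sets did not rank the arrays alike. An ending _s_at or _x_at in the probe set name marks probes that can bind related transcripts, and immunoglobulin genes resemble each other, so these values may include other heavy chain transcripts. Of the 10 other probe sets, 1427329_a_at ran closest to 1427351_s_at over the 44 arrays (Pearson r = 0.96, Spearman rho = 0.78), whereas 1425247_a_at had r = 0.75 and rho = 0.25. On 1425247_a_at the highest arrays were FVB/N IgG replicate 2 (4.77) and PKCe IgG replicate 4 (4.39), followed by PKCe IgG replicate 9 (2.47), FVB/N IgG replicate 3 (2.30) and FVB/N IgG replicate 1 (1.86). PKCe IgG replicate 4 thus stood at 1.93 on 1427351_s_at and at 4.39 on 1425247_a_at. On 1427870_x_at only PKCe IgG replicate 4 (2.33) and FVB/N IgG replicate 2 (2.67) passed 1. The remaining Ighm probe sets included 5 with an SD of 0.28 or less, and none of these passed 1 on any array.

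**Figure D2:**
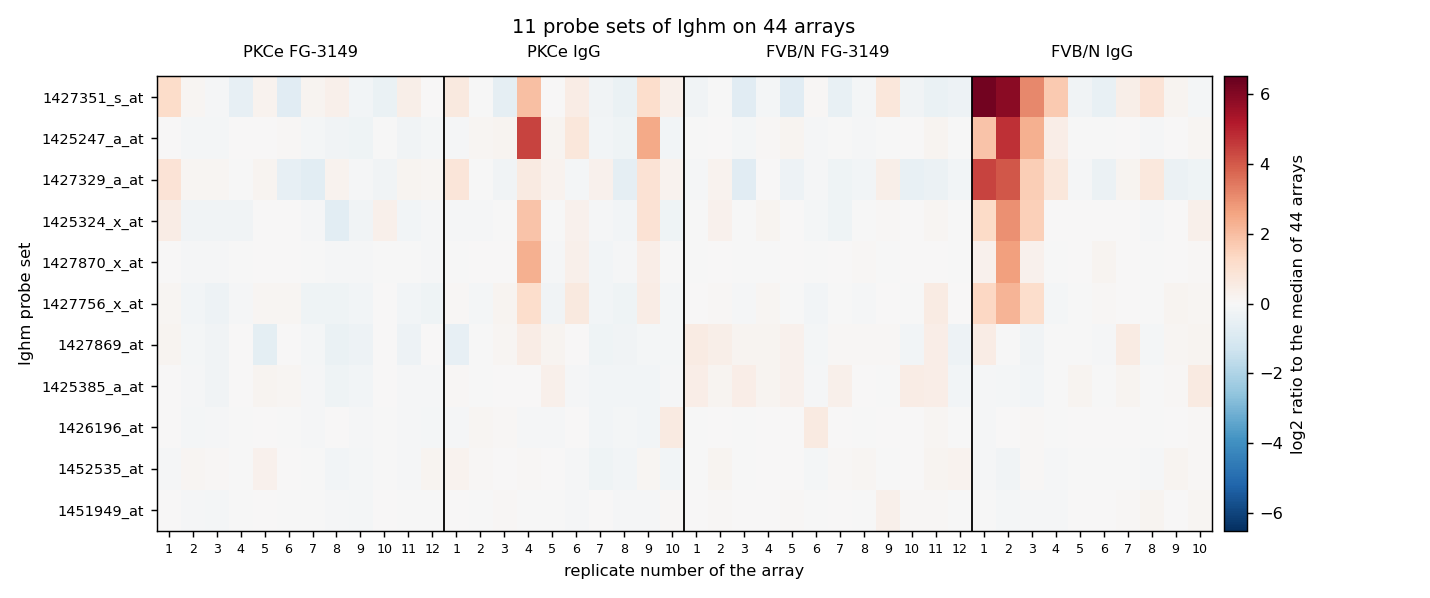
Log2 ratio to the median of 44 arrays (colour) of the 11 Ighm probe sets (rows, from the largest SD at the top) on each array (columns, by group and replicate). FVB/N IgG replicates 1 to 3 and PKCe IgG replicates 4 and 9 stand out, with FVB/N IgG replicate 1 highest on 1427351_s_at (6.28) and FVB/N IgG replicate 2 highest on 1425247_a_at (4.77), and the lowest 5 rows are nearly flat.

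Cd79a (1418830_at; chromosome 7, 24897497 to 24901858) and Cd79b (1417640_at; chromosome 11, 106311341 to 106314562) encode the paired signalling chains of the receptor. Cd79a was nearly flat over the series (SD 0.23). Its lowest, median and highest values were -0.19, -0.042 and 0.23 in PKCe FG-3149 mice, against -0.13, -0.048 and 0.022 in PKCe IgG mice. They were -0.18, -0.0039 and 0.59 in FVB/N FG-3149 mice, against -0.044, 0.070 and 1.06 in FVB/N IgG mice. FVB/N IgG replicates 1 (1.06) and 3 (0.52) and FVB/N FG-3149 replicates 3 (0.43) and 6 (0.59) were the arrays above 0.4.

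Cd79b spread more widely (SD 0.54), with -0.72, -0.13 and 1.30 in PKCe FG-3149 mice, against -0.36, -0.074 and 1.16 in PKCe IgG mice. In FVB/N FG-3149 mice its lowest, median and highest values were -0.54, 0.15 and 0.56, against -0.40, 0.051 and 1.91 in FVB/N IgG mice. The arrays above 1 were PKCe FG-3149 replicates 1 (1.20) and 8 (1.30), PKCe IgG replicate 9 (1.16) and FVB/N IgG replicate 1 (1.91). All 4 groups overlapped for Cd79a and for Cd79b.

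Ms4a1 (1423226_at; chromosome 19, 11249679 to 11266149), which encodes CD20, had an SD of 0.94 and a median near 0 in every group. Its lowest, median and highest values were -0.34, -0.015 and 2.58 in PKCe FG-3149 mice, against -0.27, -0.024 and 2.05 in PKCe IgG mice. They were -0.12, 0.00037 and 0.80 in FVB/N FG-3149 mice, against -0.24, 0.011 and 3.36 in FVB/N IgG mice. FVB/N IgG replicates 1, 2 and 3 stood at 3.36, 2.87 and 2.22, PKCe IgG replicates 4, 5 and 9 at 2.05, 1.31 and 1.79, and PKCe FG-3149 replicates 1 and 8 at 1.95 and 2.58. On those 2 PKCe FG-3149 arrays Cd79b was high as well, but Jchain was at -0.11 and -0.32. FVB/N IgG replicate 4 showed the opposite, with Jchain at 3.63 and Ms4a1 at -0.017. The other Ms4a1 probe set, 1450912_at (SD 0.45), passed 1 on FVB/N IgG replicate 1 alone (2.13) and stood at 0.56 on replicate 2 and at -0.079 on replicate 3.

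Blnk (1451780_at; chromosome 19, 40928927 to 40994221), the adaptor between SYK and PLCG2, had an SD of 0.39. Its lowest, median and highest values were -0.48, -0.12 and 0.73 in PKCe FG-3149 mice, against -0.51, -0.017 and 0.62 in PKCe IgG mice. They were -0.48, 0.16 and 0.86 in FVB/N FG-3149 mice, against -0.65, 0.020 and 0.72 in FVB/N IgG mice. On the FVB/N IgG arrays highest for the antibody genes, replicates 1, 2 and 3, Blnk was at 0.40, 0.0078 and 0.047, within the range of its group.

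Promoter windows from RefSeq (GRCm38.p6), 250 bases before to 50 after the gene start, were matched for 3 of the 6 genes. They belong to a plasma cell gene, a receptor gene and the adaptor gene, and all that were matched are shown. A link between the windows and the levels on the arrays was not tested. The sequences run 5′ to 3′ on the strand of the gene, with motif matches in capitals. The Jchain window is chr5:88527848-88528147 on the minus strand, that of Cd79a chr7:24897247-24897546 on the plus strand and that of Blnk chr19:40994172-40994471 on the minus strand.
Jchain: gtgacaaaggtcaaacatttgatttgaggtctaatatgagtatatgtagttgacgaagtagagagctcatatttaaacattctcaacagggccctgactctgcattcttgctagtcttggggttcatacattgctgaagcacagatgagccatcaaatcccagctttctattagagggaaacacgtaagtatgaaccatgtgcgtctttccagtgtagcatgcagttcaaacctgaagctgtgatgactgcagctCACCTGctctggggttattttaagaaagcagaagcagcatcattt
Cd79a: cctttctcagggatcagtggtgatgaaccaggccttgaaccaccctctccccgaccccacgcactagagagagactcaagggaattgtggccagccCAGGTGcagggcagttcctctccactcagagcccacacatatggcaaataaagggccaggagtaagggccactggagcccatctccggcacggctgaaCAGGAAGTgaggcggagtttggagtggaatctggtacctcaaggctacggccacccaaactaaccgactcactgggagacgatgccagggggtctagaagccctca
Blnk: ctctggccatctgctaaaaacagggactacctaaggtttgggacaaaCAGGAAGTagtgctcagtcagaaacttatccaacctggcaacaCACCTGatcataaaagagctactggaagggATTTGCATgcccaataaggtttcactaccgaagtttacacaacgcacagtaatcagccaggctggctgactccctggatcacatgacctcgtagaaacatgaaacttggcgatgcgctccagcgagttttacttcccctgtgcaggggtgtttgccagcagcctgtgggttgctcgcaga
The 4 motifs were chosen after these sequences were seen and were searched on both strands. The E-box CAGGTG, bound by E proteins such as those of B cell development, was in all 3 windows, and 20.21% of 32851 promoter windows of the same length hold it. The Ets-type motif CAGGAAGT was in the windows of Cd79a and Blnk (3.33% of all windows), and the octamer ATGCAAAT, bound by POU factors, was in that of Blnk (1.74%). A palindromic EBF-type motif, which 0.9% of all windows hold, was in none of the 3. These matches are letters in a window and do not overlap one another.

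The comparison of FG-3149 with IgG in FVB/N mice asks what the antibody against CTGF changed in nontransgenic hearts. Of the 12394 genes, 9.0% passed the test in either direction (4.43% higher and 4.57% lower, adjusted p under 0.05 by limma and Benjamini-Hochberg over all genes), and 2 of the 6 members did, Jchain and Ighm, both lower under FG-3149. The mean log2 ratio of Jchain was 0.0016 ± 0.20 in FVB/N FG-3149 mice (SD, n = 12) and 2.15 ± 2.47 in FVB/N IgG mice (n = 10). The difference with the sex term was -1.99 ± 0.59 (SE), 3.97-fold lower, with an adjusted p of 0.0259 by limma. For Ighm the means were -0.22 ± 0.39 in FVB/N FG-3149 mice and 1.75 ± 2.51 in FVB/N IgG mice. Its difference was -1.89 ± 0.54, 3.71-fold lower (adjusted p = 0.0198 by limma), and a permutation test of the difference in means gave an unadjusted p of 0.00482, against 0.00206 for Jchain. Without FVB/N IgG replicates 1, 2 and 3 the differences were -0.82 for Jchain (adjusted p = 0.452 by limma) and -0.55 for Ighm (adjusted p = 0.354). Leaving out replicate 2 alone ended the call of both genes, and leaving out replicate 1 or 3 ended that of Jchain. With the FVB/N arrays fitted alone the differences were -1.95 ± 0.66 (SE) for Jchain (adjusted p = 0.0815 by limma) and -1.83 ± 0.70 for Ighm (adjusted p = 0.123). Spreads differed between the groups, but the fit of all arrays takes 1 spread per gene for all 4. The permutation test shuffles arrays between groups of unequal spread. The p-values of both tests may therefore be too small.

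Ms4a1 averaged 0.069 ± 0.24 in FVB/N FG-3149 mice and 0.85 ± 1.39 in FVB/N IgG mice, and its difference of -0.72 ± 0.39 did not pass (adjusted p = 0.263 by limma). The group medians of Ms4a1 were 0.00037 in FVB/N FG-3149 mice and 0.011 in FVB/N IgG mice. Cd79a, Cd79b and Blnk did not pass either, with adjusted p of 0.460, 0.696 and 0.961. Of the other Ighm probe sets, 1427329_a_at also passed when all probe sets were fitted, with a difference of -1.17 ± 0.38 (adjusted p = 0.0468 by limma).

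In PKCe mice the same comparison, FG-3149 with IgG, called 8.82% of all genes (5.08% higher and 3.74% lower) and 0 of the 6 members. At an unadjusted p under 0.05 limma picked 1 member, Jchain, with a mean of -0.11 ± 0.16 in PKCe FG-3149 mice (n = 12) and 1.09 ± 1.80 in PKCe IgG mice (n = 10). Its difference was -1.19 ± 0.58 with an adjusted p of 0.215, while the permutation test gave an unadjusted p of 0.00142. That test has no sex term, and the unequal spreads of the 2 groups may make its p too small. Without PKCe IgG replicate 9, the array high for lung genes, the difference was -0.71 (adjusted p = 0.513 by limma). The other 5 members had adjusted p of 0.785 or above. Mean Ms4a1 was 0.40 ± 0.92 in PKCe FG-3149 mice and 0.52 ± 0.88 in PKCe IgG mice, so the spread within each group exceeded the gap between them.

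The difference between the antibody effects, that in PKCe mice minus that in FVB/N mice, passed for 3.86% of genes (2.09% higher and 1.78% lower) and for 0 of the 6 members. Ighm had the lowest unadjusted p (0.0399), with a difference of 1.60 ± 0.75 and an adjusted p of 0.278 by limma. It was the 1 member with an unadjusted p under 0.05. The antibody effects in the 2 lines are thus not shown to differ for any member.

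PKCe mice given IgG were compared with FVB/N mice given IgG to ask how the transgenic line differed under the control treatment. This comparison called 42.2% of all genes (20.7% higher and 21.5% lower) and 1 of the 6 members, Cd79a, which was lower. The share of members called was thus below that of all genes. Cd79a averaged -0.048 ± 0.060 in PKCe IgG mice and 0.20 ± 0.35 in FVB/N IgG mice (n = 10 each), a difference of -0.24 ± 0.095, 1.18-fold lower (adjusted p = 0.0372 by limma). The permutation test of Cd79a, which has no sex term and takes no account of these unequal spreads, gave an unadjusted p of 0.00248. The 3′ minus 5′ difference of the Gapdh control probe sets, a sign of RNA quality, averaged 0.30 ± 0.25 in PKCe IgG mice and -0.035 ± 0.078 in FVB/N IgG mice on the log2 scale, and with it as a covariate the Cd79a difference was -0.20 (adjusted p = 0.197 by limma). Without FVB/N IgG replicate 1, or without replicate 3, the call ended, as it did without PKCe IgG replicate 6, 7 or 8. Ighm averaged 0.33 ± 0.77 in PKCe IgG mice and 1.75 ± 2.51 in FVB/N IgG mice, with a difference of -1.33 ± 0.56 that did not pass (adjusted p = 0.0510 by limma). Without FVB/N IgG replicates 1, 2 and 3 the Ighm difference was 0.010.

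Jchain did not pass in this comparison (adjusted p = 0.229), with means of 1.09 ± 1.80 in PKCe IgG mice and 2.15 ± 2.47 in FVB/N IgG mice. Without PKCe IgG replicate 9 its difference was -1.44 with an adjusted p of 0.0347 by limma. Without FVB/N IgG replicates 1, 2 and 3 the Jchain difference took the other sign, at 0.27 (adjusted p = 0.658 by limma). Cd79b, Ms4a1 and Blnk had adjusted p of 0.546, 0.589 and 0.396. Under FG-3149, PKCe mice compared with FVB/N mice gave calls for 47.0% of genes (21.5% higher and 25.5% lower) and for 0 of the 6 members. Blnk had the lowest p there, with a mean of -0.070 ± 0.39 in PKCe FG-3149 mice and 0.11 ± 0.40 in FVB/N FG-3149 mice and a difference of -0.18 ± 0.10 (adjusted p = 0.156). At an unadjusted p under 0.05 limma picked none of the 6 in this comparison. On the nearly flat Ighm probe sets 1425385_a_at, 1427869_at and 1451949_at, differences of -0.26, -0.29 and -0.097 passed when all probe sets were fitted, while 1427351_s_at did not. Comparisons that use the same IgG or FG-3149 arrays share them and are not independent.

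**Figure D3:**
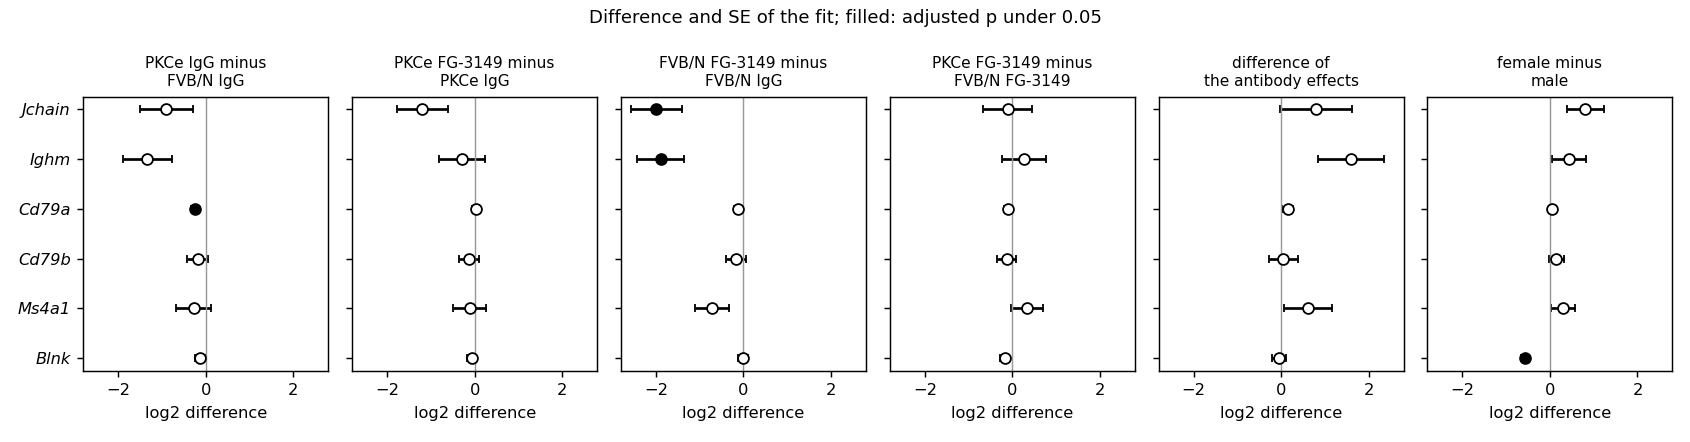
Log2 difference (horizontal axis, point) and SE (bar) of each gene in the limma fit for the 6 comparisons, the first-named group minus the second; filled points have an adjusted p under 0.05. Jchain (-1.99) and Ighm (-1.89) are filled for FG-3149 in FVB/N mice, Cd79a (-0.24) for PKCe IgG and Blnk (-0.58) for sex.

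Markers of other tissues were high on several of the high arrays. On FVB/N IgG replicates 1 to 4 the mean log2 ratio of 5 atrial genes was 5.33, 6.67, 5.91 and 5.37, and that of 5 fat genes was 4.56, 3.27, 1.74 and 3.75. The group medians were -1.07 for the atrial and -0.38 for the fat list in FVB/N FG-3149 mice, against 3.07 and 1.63 in FVB/N IgG mice. All 5 measured fat genes and 4 of the 5 atrial genes were called lower in FVB/N FG-3149 than in FVB/N IgG mice (4.57% of all genes lower). A lymph node stroma list of 4 measured genes stood at 1.52, 1.73 and 1.14 on replicates 1 to 3 but at 0.073 on replicate 4, and of its genes Cxcl13, the chemokine that draws B cells into follicles, held 5.63, 5.93, 4.77 and 0.51 there. Cxcl13 carried most of that list: Madcam1 and Ltbr lay between -0.15 and 0.059 on these 4 arrays, and Glycam1 reached 0.66 and 0.97 on replicates 1 and 2 only. High atrial markers occurred both with and without high Jchain. Of the 10 arrays with an atrial marker level above 4, 5 had Jchain above 1 and 5 did not. The 5 without were PKCe FG-3149 replicates 7 and 9 (Jchain at -0.021 and 0.27), PKCe IgG replicate 5 (0.31), FVB/N FG-3149 replicate 8 (-0.19) and FVB/N IgG replicate 9 (0.014). Their atrial marker levels lay between 4.40 and 7.14. The highest atrial marker levels of the series, 7.74, 8.47, 8.14 and 7.87, were those of FVB/N IgG replicates 1 to 4. On these arrays Jchain lay between 3.53 and 6.19. Among the more numerous arrays with lower atrial markers, Jchain was above 1 on 4, a smaller share. Without the arrays with an atrial marker level above 4, the FG-3149 differences in FVB/N mice were -0.49 for Jchain and -0.30 for Ighm and did not pass. Beyond this, the part of the atrial and fat markers in the result was not tested.

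In PKCe IgG mice the arrays differed from each other in what went with the B cell genes. Replicate 9 had the lung list (7 genes) at 5.41, the neutrophil list (6 genes) at 1.97 and the macrophage list (10 genes) at 0.90, and Igha, the heavy chain of IgA, at 5.17. Replicate 4, by contrast, held Jchain at 1.94, Ighm at 1.93 and Ms4a1 at 2.05 with the lung, atrial and fat lists at -0.095, -0.85 and -0.88. Replicate 6 had Jchain at 1.47 with the atrial list at 4.40. The mean of the T cell markers (9 measured of 10) reached at most 0.27 on any array, and that of the thymus markers (5 measured of 6) at most 0.26. A list of other B cell identity genes (22 measured of 26) had a mean of at most 0.30, so list means do not set B cells apart from T cells. Whether any of these markers is at background is unknown, since the ratio keeps no level. Ptprc, which encodes the pan-leukocyte protein CD45, was at 1.27 on PKCe IgG replicate 9 and at 0.48, 0.37 and 0.80 on FVB/N IgG replicates 1 to 3.

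**Figure D4:**
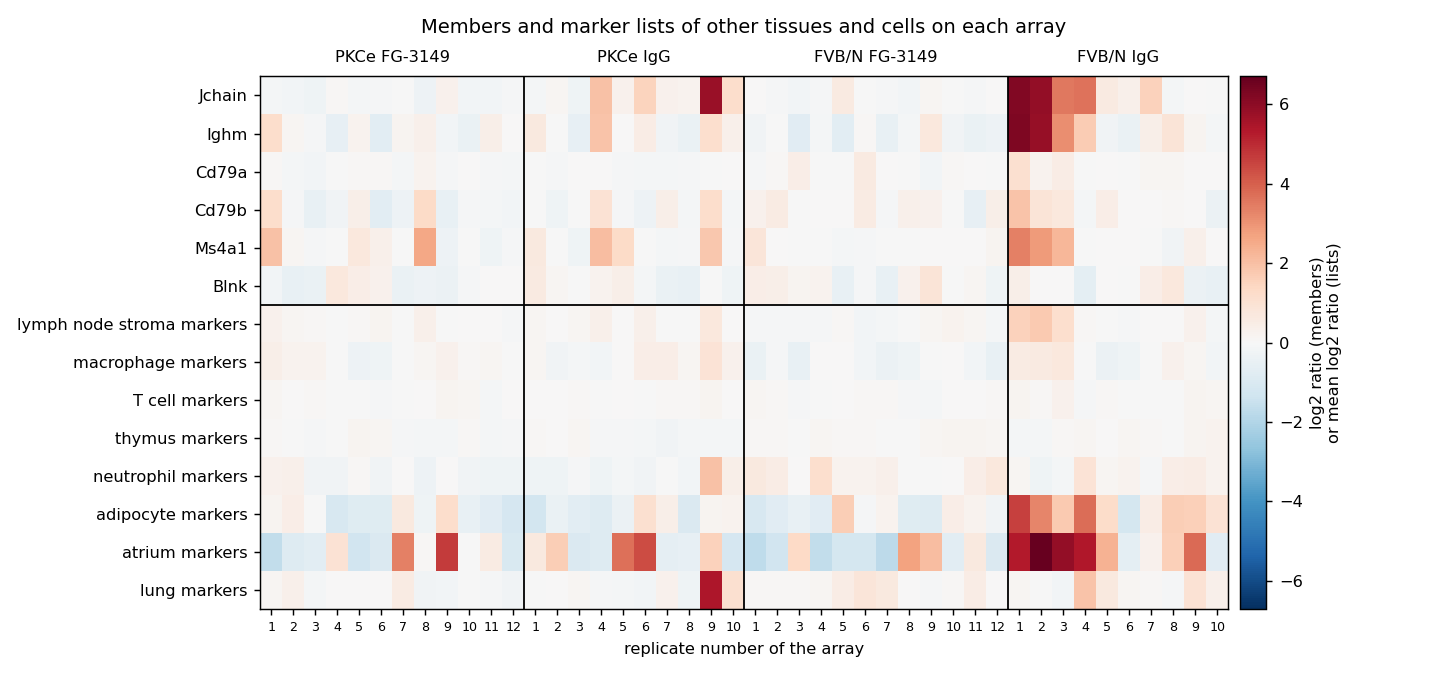
Log2 ratio of the 6 genes (upper rows) and mean log2 ratio of marker lists of other cells and tissues (lower rows), as colour, on each array (columns, by group and replicate). FVB/N IgG replicates 1 to 4 are high for atrial markers (5.33 to 6.67), PKCe IgG replicate 9 for lung markers (5.41), and PKCe IgG replicate 4 for neither, while T cell and thymus markers stay near 0.

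The members varied together over the 44 arrays around the means of group and sex. After these means were removed, all 15 pairs correlated, from r = 0.37 (Jchain with Blnk) to r = 0.83 (Cd79b with Ms4a1), with permutation p-values adjusted over the 15 pairs of 0.0137 or less (100000 resamples). Shuffling ran over all arrays, although spreads differed between groups. The SD of Jchain was 0.16 in PKCe and 0.20 in FVB/N mice given FG-3149, and 1.80 and 2.47 in those given IgG. The p-values of r and rho may therefore be too small, and co-variation within 1 group was not tested. For each pair, r was also taken without the 2 arrays whose log2 ratios of the first gene lay farthest from its median. These arrays were chosen before the means were removed, so the arrays with the largest residuals can remain. Cd79b with Ms4a1 then had r = 0.75. The highest rho was that of Cd79b with Ms4a1 as well (0.70, adjusted p = 5e-05). Jchain and Ighm had r = 0.82 but rho = 0.49, and r = 0.72 without FVB/N IgG replicates 1 and 2, whose Jchain log2 ratios lay farthest from the median. PKCe IgG replicate 9 (Jchain at 5.77) was kept there. Jchain with Cd79a rested on few arrays, with r = 0.43, rho = 0.19 (adjusted p = 0.218) and r = 0.28 without those 2 arrays. Rank correlations of 13 of the 15 pairs had an adjusted p under 0.05, and the pairs that did not were Jchain with Cd79a and Jchain with Blnk.

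Among all genes, those whose residuals ran most like Jchain over the 44 arrays were Igkv8-30 (r = 0.87, rho = 0.68), a kappa light chain segment, the epithelial keratin Krt7 (r = 0.86, rho = 0.70) and Igha (r = 0.86, rho = 0.80). For Ighm they were Cxcl13 (r = 0.88, rho = 0.73), the synaptic protein gene Snap25 (r = 0.85, rho = 0.38), Igkv8-30 (r = 0.85) and Pou2af1 (r = 0.82), a coactivator of octamer factors in B cells. Ms4a1 ran with Plac8 (r = 0.83, rho = 0.78), Cd79b and Cxcl13 (r = 0.81), and Cd79b with Ms4a1, Pou2af1 (r = 0.74) and Itgb2 (r = 0.71), the beta 2 integrin of leukocytes. The closest genes to Cd79a had lower values, led by Tlx3 (r = 0.66, rho = 0.51) and Snap25 (r = 0.65). The genes closest to Blnk were others, Brip1os (r = 0.72, rho = 0.69), Lrmp (r = 0.68) and Fmo2 (r = 0.65). These values are descriptions over arrays that share the outlying mice named above.

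Of 19 further immunoglobulin genes, 2 were called lower and 0 higher in FVB/N FG-3149 than in FVB/N IgG mice, where 4.57% of all genes were called lower. These were Igha, with a mean of -0.16 in FVB/N FG-3149 mice and 1.38 in FVB/N IgG mice (difference -1.39 ± 0.45, adjusted p = 0.0444), and Igkv8-30, with a mean of 0.017 in FVB/N FG-3149 mice and 1.18 in FVB/N IgG mice (difference -1.07 ± 0.34, adjusted p = 0.0353). Igha stood at 3.64, 2.50, 1.89 and 4.32 on FVB/N IgG replicates 1 to 4. The median difference of the 19 genes was -0.018, beside 0.025 over all genes. In PKCe IgG against FVB/N IgG mice 7 of the 19 were lower and 0 higher (21.5% of all genes lower), with a median of -0.17 beside -0.046 over all genes. Under FG-3149, 7 of the 19 were also lower in PKCe than in FVB/N mice (25.5% of all genes lower), with a median of -0.12 beside -0.048. In PKCe mice the antibody called none of the 19, beside 8.82% of all genes.

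Of the B cell identity genes, 22 of 26 were measured. Among them are the receptors Cd22 and Cr2 and the transcription factor Pax5. Of the 22, 1 was called higher under FG-3149 in FVB/N mice (Cd40, 0.36 ± 0.12, adjusted p = 0.0431 by limma) and 0 in PKCe mice (4.43% and 5.08% of all genes higher). In PKCe IgG against FVB/N IgG mice 3 were lower, Fcrla (-0.18), Cxcr5 (-0.15) and Cd37 (-0.28), and 0 were higher, a share lower that is below the 21.5% of all genes, with a median of -0.096 beside -0.046 over all genes. In PKCe FG-3149 against FVB/N FG-3149 mice 4 were lower, Cd72 (-0.28), Cr2 (-0.14), Fcer2a (-0.20) and Cd24a (-0.84), again below the share of all genes (25.5%), with a median of -0.053 beside -0.048. Ebf1, a factor of early B cell development, was the 1 gene of this list lower in females (-0.20 ± 0.069, adjusted p = 0.0372 by limma), where 7.12% of all genes were lower. The mean log2 ratio of the 22 genes was 0.30, 0.16 and 0.021 on FVB/N IgG replicates 1 to 3. It was 0.074 and 0.096 on PKCe IgG replicates 4 and 9.

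Of 20 measured of 25 genes that act below the B cell receptor, 4 were higher and 1 lower in PKCe IgG than in FVB/N IgG mice, where 20.7% of all genes were higher and 21.5% lower, with a median of 0.088 beside -0.046 over all genes. The higher ones were Plcg2 (1.04 ± 0.077, adjusted p = 5.18e-14), Dapp1 (0.86 ± 0.14), Syk (0.70 ± 0.12) and Pik3cd (0.58 ± 0.11), which other white cells also use. Under FG-3149, 7 were higher and 1 lower in PKCe than in FVB/N mice (all genes 21.5% and 25.5%), with a median of 0.071 beside -0.048. The antibody called 0 of them in PKCe mice and 1 in FVB/N mice, Pik3cd, which was higher under FG-3149 (0.32 ± 0.11, adjusted p = 0.0495). Of 10 macrophage markers, 1 (Cd68) was called higher in PKCe IgG than in FVB/N IgG mice and 5 were called higher in PKCe FG-3149 than in FVB/N FG-3149 mice (20.7% and 21.5% of all genes higher). In FVB/N mice 2 of the 10 were called lower under FG-3149 (4.57% of all genes lower), with a median of -0.25 beside 0.025 over all genes. In PKCe mice 0 were called (8.82% of all genes), with a median of -0.10 beside 0.016. All 10 differences were negative in both lines. Their part in the result was not tested.

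Of 17 measured of 19 genes of plasma cells and antibody secretion, 4 were higher and 4 lower in PKCe IgG than in FVB/N IgG mice, close to the 42.2% called over all genes, with a median of 0.076 beside -0.046 over all genes. Many of them serve protein folding in the endoplasmic reticulum of any cell: Edem1 (0.64 ± 0.11), Pdia4 (0.45 ± 0.091) and Creld2 (0.49 ± 0.11) were higher, and Herpud1 (-0.63 ± 0.068) was lower. Herpud1 (0.45 ± 0.065, adjusted p = 2.73e-05 by limma) and Dnajb9 (0.27 ± 0.051) were higher in PKCe FG-3149 than in PKCe IgG mice. They were the 2 genes of the list called there, where 5.08% of all genes were higher. The antibody effect differed between the lines for these 2 genes too (0.50 ± 0.092 for Herpud1 and 0.30 ± 0.072 for Dnajb9), beside 3.86% of all genes. In FVB/N mice Sdc1, the plasma cell surface protein CD138 that epithelia also carry, was the 1 gene called, lower under FG-3149 (-0.61 ± 0.13, adjusted p = 0.00185). Under FG-3149, 5 were higher and 3 lower in PKCe than in FVB/N mice, close to the 47.0% called over all genes. The mean log2 ratio of the 17 genes was 0.058, 0.30 and 0.13 on FVB/N IgG replicates 1 to 3. It was 0.022 and 0.24 on PKCe IgG replicates 4 and 9.

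Class II genes, which present antigen on B cells and other cells, included 2 that were higher under FG-3149. Of 10 measured of 13 genes of class II and B cell survival, 2 were higher in PKCe FG-3149 than in PKCe IgG mice (5.08% of all genes higher), H2-Ab1 (0.71 ± 0.22, adjusted p = 0.0367) and Cd74 (0.54 ± 0.17, adjusted p = 0.0418), with a median of 0.17 beside 0.016 over all genes. In FVB/N mice H2-Ab1 was higher under FG-3149 (0.75 ± 0.23, adjusted p = 0.0298 by limma) and Cxcl13 lower (-1.76 ± 0.54, adjusted p = 0.0340 by limma), with a median of 0.23 beside 0.025. There 4.43% of all genes were higher and 4.57% lower. Cxcl13 averaged -0.12 in FVB/N FG-3149 mice and 1.77 in FVB/N IgG mice. Cxcl12 was the 1 gene of this list called in PKCe FG-3149 against FVB/N FG-3149 mice (-0.25 ± 0.11), beside 47.0% of all genes. In PKCe IgG against FVB/N IgG mice limma called none of the list, beside 42.2% of all genes.

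Blnk was the 1 member that differed by labelled sex, in a comparison that called 15.8% of genes (8.67% higher and 7.12% lower in females). At 1 of 6, the share of members was close to that of all genes. Its lowest, median and highest values were -0.65, -0.33 and 0.40 in the 24 females and -0.063, 0.29 and 0.86 in the 20 males. The means were -0.25 ± 0.26 in females and 0.32 ± 0.27 in males (SD), and the difference averaged over the groups was -0.58 ± 0.079 (SE), 1.5-fold lower in females (adjusted p = 1.95e-06 by limma). Of the females 17 of 24 lay below the lowest male, and 9 of 20 males lay above the highest female. Without FVB/N FG-3149 replicate 11, whose sex label is in doubt, the difference was -0.60 (adjusted p = 1.33e-06 by limma), and that array held the highest Blnk value (0.11) among the 6 labelled females of its group.

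The female mean of Blnk lay below the male mean in all 4 groups, and the difference passed in both PKCe groups. In PKCe FG-3149 mice it averaged -0.38 ± 0.11 in females and 0.24 ± 0.31 in males (n = 6 each), with a difference of -0.62 ± 0.15 (adjusted p = 0.0280 by limma). In PKCe IgG mice the means were -0.28 ± 0.21 in females and 0.27 ± 0.25 in males (n = 5 each), and the difference was -0.55 ± 0.17 (adjusted p = 0.0281 by limma). In FVB/N FG-3149 mice they were -0.20 ± 0.25 in females and 0.42 ± 0.24 in males (n = 6 each), and in FVB/N IgG mice -0.15 ± 0.37 in 7 females and 0.37 ± 0.38 in 3 males. These FVB/N differences, -0.61 ± 0.15 and -0.52 ± 0.18, had adjusted p of 0.0735 and 0.152 by limma. Sex within a group called 1.75% of genes in PKCe FG-3149, 12.2% in PKCe IgG, 0.258% in FVB/N FG-3149 and 1.18% in FVB/N IgG mice.

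**Figure D5:**
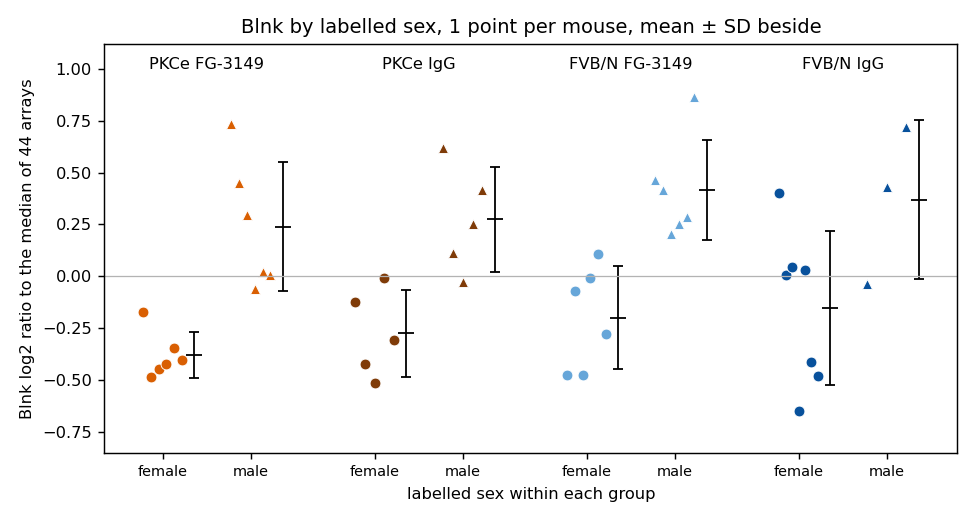
Blnk log2 ratio to the median of 44 arrays (vertical axis) in females (circles) and males (triangles) of each group, with 1 point per mouse and the mean ± SD to the right. Female means lie between -0.38 and -0.15 and male means between 0.24 and 0.42, and 17 of the 24 females lie below the lowest male (-0.063).

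The other members did not pass for sex. Jchain averaged 1.19 ± 2.11 in females and 0.14 ± 0.58 in males, with a difference of 0.81 ± 0.42 (adjusted p = 0.169 by limma), and its 5 arrays above 2 were all from females. Ighm, Cd79a, Cd79b and Ms4a1 had adjusted p of 0.433, 0.639, 0.538 and 0.461. Within FVB/N IgG mice, replicates 1 to 5 were female and replicates 6 to 8 male, so the 4 highest Jchain arrays of that group fell among its 7 females. Macrophage markers differed by sex too, with 6 of 10 higher in females and 0 lower (8.67% and 7.12% of all genes). Their part in the Blnk difference was not tested.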

How the data were processed

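The data are left ventricular RNA levels of 44 mice, 1 Affymetrix 430A 2.0 array each. The deposited values are ratios: per the labels, GCRMA values (version not given) were divided by the median of each probe set over all arrays in GeneSpring GX 7.3.1, and that median was 1 within 0.001 for all 22690 probe sets. Of these, 20393 name 1 gene, 691 several and 1606 none. Signal over background is unknown, so its part in the precision is not known. Known limits are the number of arrays, the arrays high for lung or atrial markers, the Gapdh difference and the sex label in doubt. Replicates are separate mice, per the labels.

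Log2 ratios were fitted with limma 3.58.1 (R 4.3.3) in 1 model of 4 group means and a sex term, with 1 probe set per gene (largest SD) over 12394 genes. Each gene has 1 spread for all groups in this model, so its p-values may be too small or too large where spreads differ. Benjamini-Hochberg adjustment ran over all genes, with a threshold of 0.05. Permutation tests are two-sided with 100000 resamples (SciPy 1.17.1) and unadjusted. The script was tested on simulated data. The members and lists were chosen with earlier results of these data known. Named beyond the members are up to 4 genes of each list with the lowest p in a comparison, and the 5 whose residuals correlate best with each member. Other genes on outlying arrays, such as Cxcl13, Igha and Uty, were chosen after their values were seen. Alternatives covered scaling, filters, covariates, sex, probe sets and leaving out arrays. Deviations of same-numbered arrays of different groups had a median correlation of -0.051, with sex not removed.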

Additional observations from a re-analysis of the deposited data

Results flagged for a closer look

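For the 6 genes in PKCe IgG and FVB/N IgG mice (10 arrays each), 12 sets of values in all, the highest and the lowest array were each set against the nearest other array (24 ends), and 2 lay farther off than Dixon's limit for 10 values. Chance marks about 1 in 20 groups. Jchain stood at 5.77 on PKCe IgG replicate 9, the array with the lung marker level of 5.41. Cd79a stood at 1.06 on FVB/N IgG replicate 1, where Jchain and Ighm were at 6.19 and 6.28. Groups of 12 arrays were not tested this way.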

How the results depend on the processing

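In PKCe IgG against FVB/N IgG mice 1 member was called. The count was 2 without the sex term, with genes of SD at least 0.2, or with a pseudocount of 0.1, where Ighm was called as well. It was 0 with arrays centred on their median (Cd79a -0.21) or quantile normalized (-0.18), with only the groups compared, in females only, in males only, without arrays with an atrial marker level above 4, with the Gapdh 3′ to 5′ difference as a covariate, and, as alternatives chosen after seeing the data, without the 6 arrays with 3 or more members above 1 or without FVB/N IgG replicates 1, 2 and 3. Leaving out 1 array gave 0 to 2. Without PKCe IgG replicates 9 and 10 Cd79a lost its call (adjusted p = 0.0586 by limma) and Jchain was called (-1.48). For FG-3149 in FVB/N mice 2 members were called. The count was 1 with the mean of a gene's probe sets (Ighm -0.46), and 0 with only the groups compared, in females only (Jchain -2.76, Ighm -2.75), in males only (-0.64 and -0.35), without arrays with an atrial marker level above 4, without the arrays with 3 or more members above 1 (-0.83 and -0.55) or without FVB/N IgG replicates 1, 2 and 3. Leaving out 1 array gave 0 to 2. Settings that leave out arrays or fit fewer of them also have fewer samples, and otherwise the cause was not tested. Of the 36 member differences, 10 had an unadjusted p under 0.1 by limma in the main fit. Some of these 10 took the other sign in a setting, and none of those values was called. For Ighm in PKCe IgG against FVB/N IgG they were 0.15 in males, 0.28 without the high atrial arrays and 0.010 without FVB/N IgG replicates 1, 2 and 3. For Ms4a1 under FG-3149 in FVB/N mice they were 0.21 in males and 0.091 without the high atrial arrays. Ms4a1 was also at 0.057 without the arrays with 3 or more members above 1 and at 0.062 without FVB/N IgG replicates 1, 2 and 3. For Ighm in the difference of antibody effects they were -0.23 in males and -0.0031 without the high atrial arrays. Of 1617 recomputed values of the other 26 differences, 74 had the other sign. They include Jchain in PKCe IgG against FVB/N IgG, at 0.27 without FVB/N IgG replicates 1, 2 and 3. The counts of the other comparisons stayed at 0 for FG-3149 in PKCe mice, 0 for PKCe FG-3149 against FVB/N FG-3149, 0 for the difference of antibody effects and 1 for sex, with Blnk between -0.66 and -0.53 in 15 settings. With the replicate block (consensus correlation -0.0126) the counts were 1 and 2 as before. Of 60 same-numbered pairs of arrays 13 correlated above 0.1 (lowest -0.50, median -0.051, highest 0.35). Sex was not removed from these values, so they cannot decide whether the numbers pair the mice. A planned permutation p adjusted over the members is not given.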
